A study of Mus musculus with 27 samples.

Results

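Injured dorsal root ganglia of wild-type mice given RU521, an inhibitor of the DNA sensor cGAS, were compared with ganglia of wild-type mice after sham surgery, to list which changes of sciatic nerve injury remained with the inhibitor and which were absent. The comparison used 6 of the 27 libraries of the series, chosen by their labels, with 3 injured libraries given RU521 and 3 sham libraries. A further 3 libraries, from injured wild-type ganglia without RU521, defined the injury changes themselves. All 9 were bulk SMART-Seq libraries of lumbar L4-L5 ganglia by their labels, although the design text of the series speaks of nerve samples; both injured groups were taken 3 days after the injury, and RU521 was injected into the sciatic nerve. Titles name the control intact, its treatment label says sham surgery, and it is called sham here. Strain, age, sex, the RU521 dose and whether the injured group without RU521 had a vehicle injection are not stated by the labels. Nor is whether replicates are separate animals, so the p-values measure only the spread between libraries. That spread was estimated over all 15 ganglion libraries of the series, which include sham and injured Ptpn2 knockout libraries. No sham group with RU521 was analysed, so in the comparison with sham an effect of the compound and an effect of injury cannot be told apart.

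Dorsal root ganglia contain the somata of sensory neurons whose axons run in the sciatic nerve, together with satellite glia, myelinating Schwann cells, blood vessels and resident macrophages. After an axon is cut or crushed, these neurons are known to switch on a growth programme led by transcription factors such as ATF3 and JUN, to make injury peptides such as galanin, and to turn down channels and transmitters of the resting state, while leukocytes enter the ganglion. cGAS recognises DNA in the cytosol and signals through STING to interferon and inflammatory genes.

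The 6 libraries held 15562227 to 22414750 counts. They did not all resemble their group: sham replicates 1 and 3 had 26235 and 26802 genes with a count and 4.87% and 6.52% mitochondrial counts, whereas sham replicate 2 had 34115 genes and 15.2%. Replicates 1, 2 and 3 of the RU521 group had 28803, 32488 and 30938 genes and 7.83%, 15.5% and 11.3% mitochondrial counts, and injured libraries without RU521 had 33275 to 34340 genes and 13.2% to 15.7%. Summed marker levels differed between these libraries too, as the plot of library facts shows, and their part in the results was not tested beyond the fits named below. Below, levels are TMM-scaled CPM (counts relative to the library total, on edgeR's common scale), means are ± SD with n = 3 libraries, and a level under 3 counts, or 0.134 to 0.193 CPM in these 6 libraries, was taken as not detected. That floor covers counting error only.

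**Figure D1:**
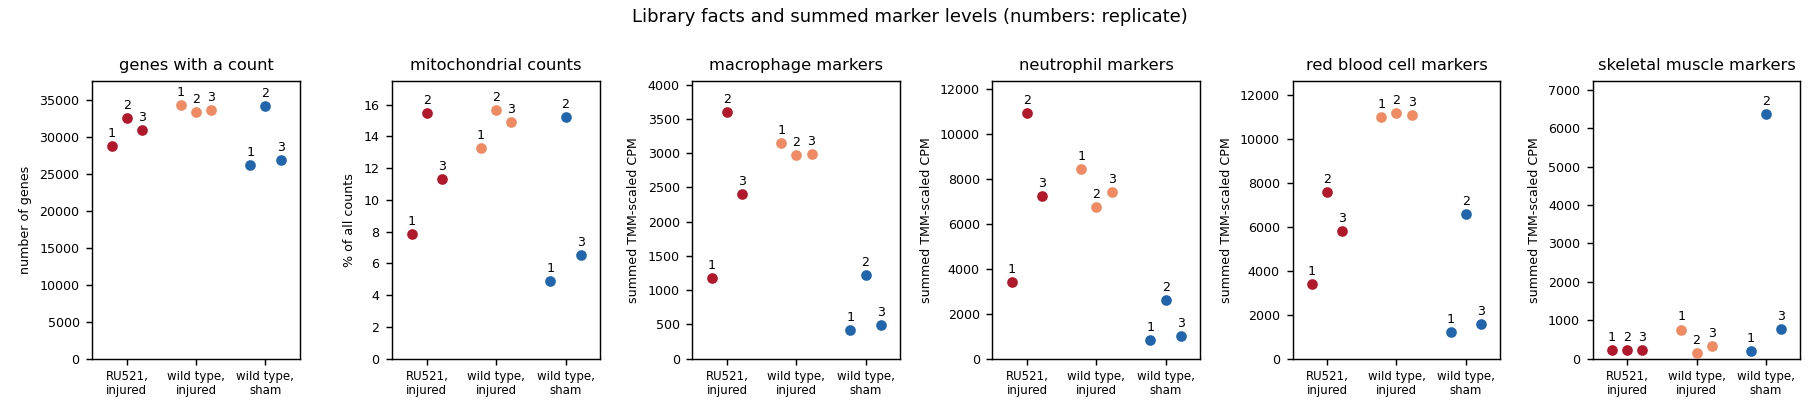
Each panel gives the 9 libraries by group (red RU521 injured, orange wild-type injured, blue wild-type sham, numbered by replicate): genes with a count, mitochondrial counts in percent of all counts, and the summed TMM-scaled CPM of marker lists of macrophages, neutrophils, red blood cells and skeletal muscle. RU521 replicate 1 has the lowest and RU521 replicate 2 the highest neutrophil sum of its group (3403 and 10951 CPM), and sham replicate 2 stands above the other sham libraries in every panel.

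Set against the same sham libraries, injury under RU521 had fewer called genes than injury without it with all libraries fitted, but 2 alternatives turned that order: the counts were 1169 under RU521 and 849 without it with a covariate of detected genes, and 1847 and 1586 with sham replicate 2 as the only sham library. Of 18517 genes tested, 442 passed under RU521 (2.39%, Benjamini-Hochberg adjusted p under 0.05 in edgeR's quasi-likelihood test, a gene then being named as called), 343 higher (1.85%) and 99 lower (0.535%). Injury without RU521 had 1593 genes higher (8.6%) and 1477 lower (7.98%). Both comparisons share the 3 sham libraries, so the sets of genes are not independent, and whether a change differed under RU521 was read from the direct test between the injured groups, which called 1774 genes (9.58%), 944 higher (5.1%) and 830 lower (4.48%) under RU521. The count under RU521 hung on single libraries. It was 2276 without sham replicate 2, 112 without sham replicate 3, 1027 without RU521 replicate 1, 129 without RU521 replicate 2 and 205 without RU521 replicate 3. A fit of the 6 libraries alone called 10 genes, limma-voom called 4589, and with the covariate of detected genes the split was 722 higher and 447 lower. Without sham replicate 1 it was 169 higher and 175 lower, so the excess of increases was not seen in that fit. The split of the direct test turned to 240 higher and 451 lower without RU521 replicate 1, 195 and 281 without wild-type injured replicate 2, 242 and 348 without wild-type injured replicate 3, 651 and 744 with the covariate, 798 and 975 in the fit of the injured groups alone, and 3038 and 3148 with limma-voom.

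A larger share of the increases than of the decreases was also called under RU521. Of the 3070 genes called for injury without RU521, 349 were called under RU521 with the same sign, which is 11.4% of these and 79.0% of all genes called under RU521. They were 317 of the increases (19.9%) but 32 of the decreases (2.17%), and the share of increases was the larger one in each of the 17 alternative fits. In 8 of the 349 the change was smaller by the direct test, and in none was it larger. Another 985 changes were absent, meaning that they did not pass under RU521 and that the direct test was called against the direction of injury: 333 increases (20.9%) and 652 decreases (44.1%). This rule does not show that nothing of such a change remained. For 1722 genes neither the comparison with sham under RU521 nor the direct test passed, so these changes were not resolved at this sample size, and 14 genes were called in opposite directions. These classes differed in the size of the change too. The median log2 fold change without RU521 was 2.18 for genes called in both with no direct difference. It was -0.70 for absent and 0.55 for unresolved changes, with increases and decreases pooled. Whether size accounts for the unequal shares was not tested. Conversely, 55 genes called under RU521 were called for no injury change without it and differed in the direct test, 14 higher and 41 lower.

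These counts moved with single libraries as well. The genes called in both with no difference in the direct test, 341 in all, came to 188, 1614 and 83 without sham replicates 1, 2 and 3, and to 769, 86 and 170 without RU521 replicates 1, 2 and 3. The 985 absent changes came to 626, 2156 and 454 without sham replicates 1, 2 and 3, to 633, 194 and 241 without wild-type injured replicates 1, 2 and 3, and to 384, 1696 and 517 without RU521 replicates 1, 2 and 3.

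**Figure D2:**
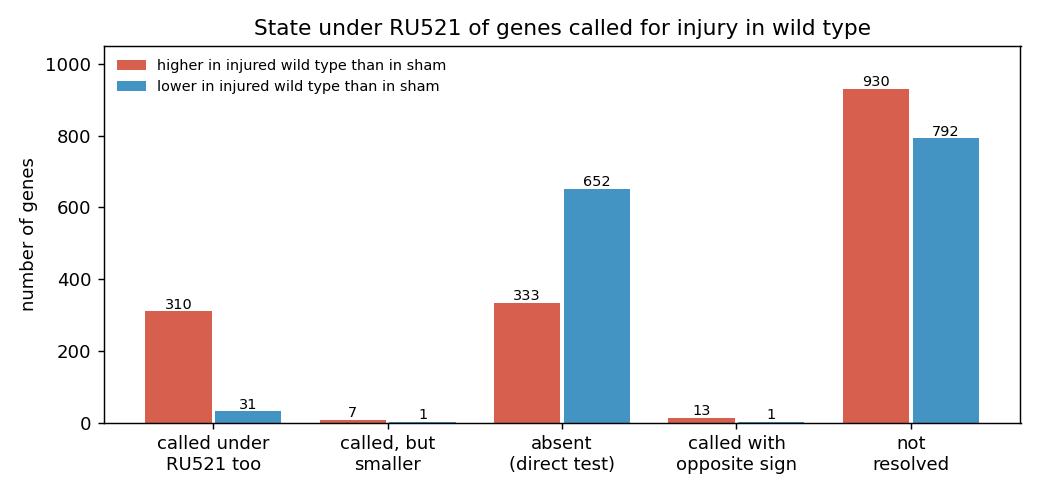
Bars count the 3070 genes called for injury without RU521 by their state under RU521, red for genes higher and blue for genes lower in injured wild type than in sham. Of the genes lower after injury, 652 were absent under RU521 and 31 were called in both without a difference in the direct test; of those higher, 333 were absent and 310 were called in both.

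The neuronal injury genes were induced under RU521, which also checks the labels of the injured ganglia. Sprr1a, a proline-rich protein that injured neurons make (chromosome 3, 92483952 to 92485895, GRCm38), stood at 108, 307 and 239 CPM in the RU521 libraries, at 329, 719 and 638 CPM in injured libraries without RU521 and at 1.52, 2.61 and 1.66 CPM in sham. The 3 groups did not overlap. Its log2 fold change under RU521 was 6.83 ± 0.42 (SE; adjusted p = 7.37e-07), against 8.20 ± 0.44 without RU521, and the direct test gave -1.37 ± 0.32 (adjusted p = 0.0151). Atf3, the stress-induced transcription factor (chromosome 1), stood at 64.8, 234 and 137 CPM with RU521, at 178, 377 and 321 CPM in injured ganglia without it and at 7.97, 9.34 and 6.36 CPM in sham. All injured libraries lay above all sham libraries, and the 2 injured groups overlapped. Its fold change was 4.20 ± 0.39 under RU521 (adjusted p = 5.56e-05), and the direct difference of -1.01 ± 0.34 did not pass (adjusted p = 0.074, 95% interval -1.73 to -0.28).

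Gal, the neuropeptide galanin (chromosome 19, 3409915 to 3414544), reached 112, 257 and 149 CPM with RU521, 263, 484 and 441 CPM in injured ganglia without it and 22.7, 14.3 and 18.2 CPM in sham. It rose under RU521 by 3.23 ± 0.30 and was lower than without RU521 by the direct test (-1.20 ± 0.28, adjusted p = 0.0148). In each of these genes RU521 replicate 1 was the lowest injured library and replicate 2 the highest of its group. The smaller induction of Sprr1a and Gal lost its call in some fits: without wild-type injured replicate 2 the direct difference was -1.14 in Sprr1a and -1.02 in Gal (adjusted p = 0.0884 and 0.0859), and without wild-type injured replicate 3 it was -1.26 in Sprr1a and -1.11 in Gal (adjusted p = 0.0641 in both). Gal was not called without RU521 replicate 1 or 3 either (adjusted p = 0.0693 and 0.0691).

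**Figure D3:**
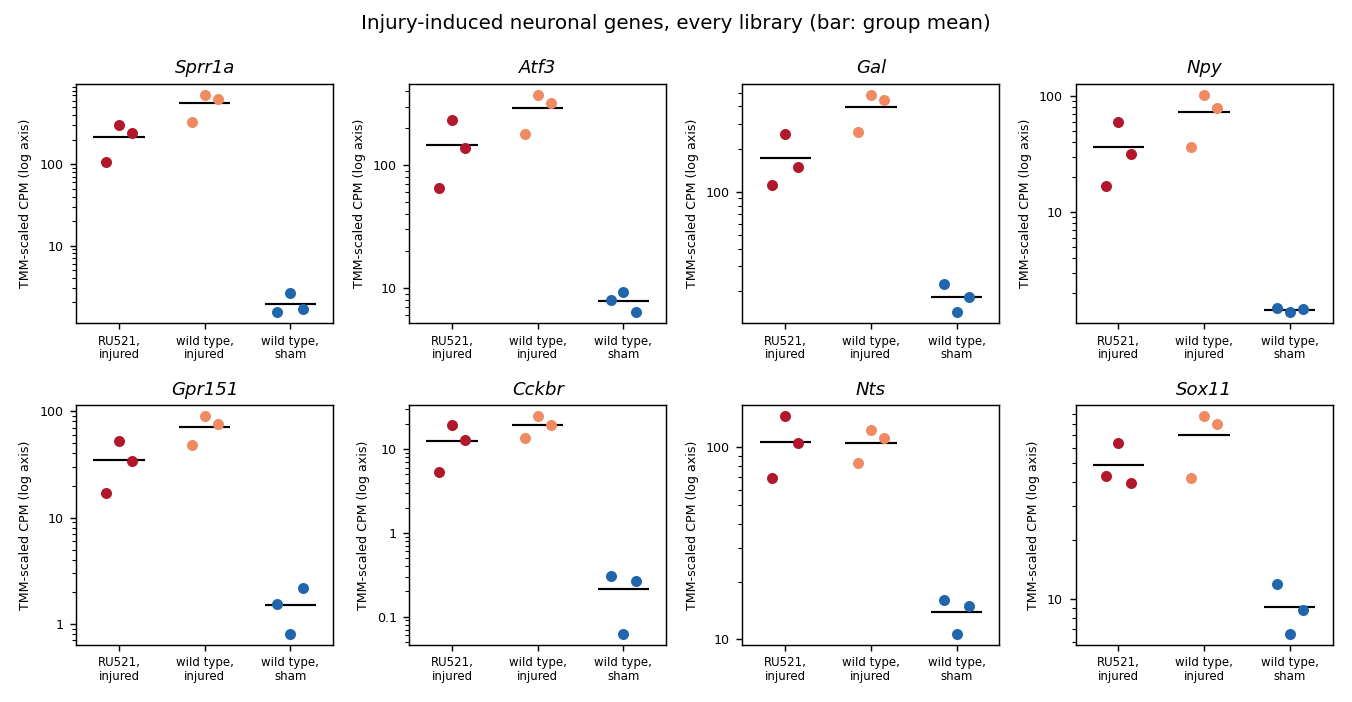
TMM-scaled CPM on log axes of 8 injury-induced genes in every library (red RU521 injured, orange wild-type injured, blue wild-type sham; points are libraries, bars group means). In all 8 the RU521 libraries lie above every sham library, for Nts at 69.4 to 144 CPM against 10.7 to 16 CPM. The largest increases were chosen among genes with no overlap with sham, so for those genes the separation follows from the choice.

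Promoter sequences of 4 genes that rose under RU521 are shown to give the letters of the DNA around the starts of the 3 marker genes and of Uts2b, which was called under RU521 and not for injury without it. They come from RefSeq (GRCm38.p6) and run from 250 bases before to 50 after the gene start, written 5′ to 3′ on the gene's own strand. Capitals mark matches on either strand to the AP-1 letters (TGA and TCA with any base between them), bound by JUN and FOS family dimers, or to the ATF/CRE letters TNACGTCA, bound by ATF family proteins. The motifs were chosen with the results known.
Sprr1a, chr3:92485832-92486131, minus strand: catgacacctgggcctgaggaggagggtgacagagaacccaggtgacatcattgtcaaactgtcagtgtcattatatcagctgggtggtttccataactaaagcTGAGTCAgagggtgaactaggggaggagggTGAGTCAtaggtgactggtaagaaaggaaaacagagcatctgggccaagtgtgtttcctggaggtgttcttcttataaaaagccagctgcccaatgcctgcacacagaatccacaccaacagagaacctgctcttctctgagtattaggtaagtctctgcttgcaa
Atf3, chr1:191183284-191183583, minus strand: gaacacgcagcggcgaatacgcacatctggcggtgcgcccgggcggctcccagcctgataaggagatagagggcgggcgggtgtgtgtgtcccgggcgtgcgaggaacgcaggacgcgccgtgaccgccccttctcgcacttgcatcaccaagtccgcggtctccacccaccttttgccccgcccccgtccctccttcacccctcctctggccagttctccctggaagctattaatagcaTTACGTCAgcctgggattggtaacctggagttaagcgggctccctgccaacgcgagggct
Gal, chr19:3414495-3414794, minus strand: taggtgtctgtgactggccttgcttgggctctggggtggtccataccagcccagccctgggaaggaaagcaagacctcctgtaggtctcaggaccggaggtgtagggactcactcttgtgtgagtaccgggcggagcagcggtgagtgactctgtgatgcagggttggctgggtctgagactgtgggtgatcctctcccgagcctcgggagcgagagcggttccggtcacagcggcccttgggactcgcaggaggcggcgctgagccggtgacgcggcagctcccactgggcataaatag
Uts2b, chr16:27370190-27370489, minus strand: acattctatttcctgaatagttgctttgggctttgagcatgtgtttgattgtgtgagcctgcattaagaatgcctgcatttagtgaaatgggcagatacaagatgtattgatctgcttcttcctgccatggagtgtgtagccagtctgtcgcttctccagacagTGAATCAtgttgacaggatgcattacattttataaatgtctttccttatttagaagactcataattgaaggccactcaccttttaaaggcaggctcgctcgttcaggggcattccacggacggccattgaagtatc
The Sprr1a window held 2 AP-1 matches, starting 146 and 116 bases before the gene start, the Uts2b window 1 at 86 bases before it, the Atf3 window 1 ATF/CRE match at 10 bases before it, and the Gal window neither. AP-1 letters were in 11% of 245 promoters of increases called in both comparisons with one sign, in 6.72% of 253 promoters of absent increases and in 3.70% of 514 promoters of absent decreases. They were in 5.81% of 13310 promoters of all genes tested and in 7.91% of all 27025 promoters of the table. ATF/CRE letters were in 2.86%, 2.77% and 5.06% of the same 3 sets and in 4.37% of promoters of genes tested. A match of letters is a description and not a binding site.

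Other peptide and receptor genes of injured neurons remained as well. Npy, neuropeptide Y, stood at 16.9, 60.4 and 31.8 CPM with RU521, at 36.3, 103 and 78.8 CPM without it and at 1.48, 1.37 and 1.44 CPM in sham, a rise of 4.66 ± 0.46 under RU521. Cckbr, the receptor of gastrin and cholecystokinin, held 12.6 ± 7.19 CPM with RU521, 19.4 ± 5.60 CPM without it and 0.211 ± 0.131 CPM in sham (5.78 ± 0.60 under RU521). Gpr151, an orphan receptor of habenular and injured sensory neurons, rose by 4.49 ± 0.41 and the neuropeptide Nts, neurotensin, by 2.94 ± 0.26, with 106 ± 37.5 CPM under RU521, 105 ± 20.8 CPM without it and 13.9 ± 2.78 CPM in sham. The transcription factor Sox11 rose by 2.42 ± 0.29 and the stress hormone Crh by 4.98 ± 0.68. In none of these 6 did the direct test pass, with adjusted p between 0.0617 in Gpr151 and 0.984 in Nts. Sprr1a, Atf3, Gal, Npy, Cckbr, Gpr151, Nts, Sox11, Uts2b and the decrease of Comp were the 10 genes called when only the 6 libraries were fitted, and they were called in all 17 alternative fits.

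Among the regeneration-associated genes, 31 were measured, of which 15 rose and 0 fell under RU521 (median log2 fold change 0.89, against -0.02 over all genes tested), and 21 rose without RU521 (median 1.06). The 15 were among the 21. Gap43, a protein of growth cones, rose by 0.75 ± 0.18 (330 ± 40 CPM with RU521, 410 ± 106 CPM without it, 197 ± 21.5 CPM in sham). Gadd45a, a stress-induced DNA repair factor, was the 1 absent change of the list, with 18.2, 24.9 and 13.3 CPM with RU521, 41.7, 61.9 and 57.8 CPM without it and 5.71, 14.3 and 10.8 CPM in sham. RU521 and sham libraries of Gadd45a overlapped, and the direct difference was -1.52 ± 0.30 (adjusted p = 0.0073). RU521 replicates 1 and 2 lay above every sham library, so a smaller rise of Gadd45a under RU521 may remain. The direct test of the list called 2 genes higher and 3 lower under RU521. The 15 were 12 to 19 when 1 library was left out and 8 in the fit of 6 libraries. Gap43 was not called without RU521 replicate 2 (adjusted p = 0.176).

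Further large increases under RU521 had the same course without it. Wfdc3, a protease inhibitor domain protein, rose by 4.46 ± 0.58, Ecel1, an endopeptidase-like protein of neurons, by 4.34 ± 0.62, the homeobox gene Hoxd10 by 3.99 ± 0.72, the growth factor Fgf3 by 3.56 ± 0.42 and Tmem88b by 3.38 ± 0.53. All of them were called without RU521 too and none differed in the direct test. The smaller changes, beside Sprr1a and Gal, were 5 increases and 1 decrease. Lipn, a lipase, had 3.10 ± 2.21 CPM with RU521, 12.9 ± 5.35 CPM without it and 0.156 ± 0.0499 CPM in sham (direct -2.06 ± 0.45). The tubulin Tubb6 (54.8 ± 20.1, 118 ± 34.4 and 27.0 ± 3.03 CPM in the same order), the metalloproteinase Mmp16, the adaptor Lmo7 and the protease inhibitor Serpinb1a also rose by less, and the lectin-like gene Clec2l fell by less. Hoxd10 was not called without sham replicate 3 (adjusted p = 0.0522), and Tubb6 not without RU521 replicate 2 (adjusted p = 0.194).

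Uts2b, the precursor of the urotensin-related peptide, rose under RU521 but was not called for injury without it. It stood at 18.8, 47.2 and 29.2 CPM in the RU521 libraries, at 3.48, 0.882 and 1.87 CPM in injured libraries without RU521 and at 0.784, 0.498 and 1.02 CPM in sham. Every RU521 library lay above every other library. The fold change was 5.34 ± 0.57 against sham (adjusted p = 0.000162) and 3.93 ± 0.52 against injury without RU521 (adjusted p = 0.000912), and the injury change without RU521 did not pass (1.41 ± 0.55, adjusted p = 0.0933). Ly86, the partner of a Toll-like receptor homologue, was at 448, 257 and 376 CPM with RU521, at 164, 84.8 and 104 CPM without it and at 169, 166 and 155 CPM in sham (1.14 ± 0.22 against sham). Cartpt, a neuropeptide precursor, changed in opposite directions: 61.1, 67.7 and 63.5 CPM with RU521, 17, 10.6 and 13.3 CPM without it and 31.7, 22.5 and 30.7 CPM in sham. None of the 3 groups of Cartpt overlapped, with a rise of 1.18 ± 0.22 under RU521, a fall of 1.06 ± 0.22 without it and a direct difference of 2.24 ± 0.23 (adjusted p = 0.000136).

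Neutrophil genes rose with RU521 as they did without it. All 14 measured neutrophil markers rose in both comparisons (median 2.31 under RU521 and 2.46 without it) and 0 differed in the direct test. Cxcr2, the chemokine receptor of neutrophils, stood at 10.5, 47.7 and 26.8 CPM with RU521, at 36.3, 27.8 and 35.4 CPM without it and at 4.18, 5.10 and 3.90 CPM in sham (2.69 ± 0.41 under RU521). Mmp8, the neutrophil collagenase, rose by 2.61 ± 0.37, Mmp9, a gelatinase, by 2.44 ± 0.36 and Ltf, the granule protein lactoferrin, by 2.46 ± 0.37. RU521 replicate 1 held the least and replicate 2 the most of each. The 14 were 6 without sham replicate 3, 6 without RU521 replicate 2 and 3 with sham replicate 2 as the only sham library, and 14 in the other fits except those without sham replicate 1 or RU521 replicate 3 (11 each) and the fit of 6 libraries (0). In bulk ganglia, more cells of a type and more RNA per cell cannot be told apart, nor can blood left in the tissue.

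Genes of red blood cells and of dividing cells rose in part. Of 9 red blood cell markers 4 rose under RU521 and 9 without it, among them Klf1, the erythroid transcription factor (27.3 ± 18.2 CPM with RU521, 27.3 ± 3.93 CPM without it, 5.02 ± 2.27 CPM in sham). The summed level of these markers was 3403, 7584 and 5836 CPM with RU521, 11033, 11220 and 11097 CPM without it and 1222, 6610 and 1566 CPM in sham, so sham replicate 2 lay within the range of the RU521 libraries. Of 18 proliferation genes 9 rose under RU521 and 17 without it, none differing directly. Ccnb1, a mitotic cyclin, stood at 7.78, 43.6 and 26.1 CPM with RU521, at 28.0, 30.5 and 33.8 CPM without it and at 2.13, 7.66 and 3.63 CPM in sham. The replication factor Mcm2 rose by 1.38 ± 0.26 and the kinase Plk1 by 1.99 ± 0.43. The 9 proliferation genes were 0 without sham replicate 3 or RU521 replicate 2, 2 without sham replicate 1 or RU521 replicate 3, 18 without sham replicate 2 and 16 without RU521 replicate 1. The 4 red blood cell genes were 2 without sham replicate 1 or 3 or RU521 replicate 2 or 3, and 9 without sham replicate 2.

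Macrophage markers split. Of 21 measured, 3 rose under RU521 and 19 without it, and the direct test called 5 lower and 0 higher under RU521. Lyz2, the myeloid lysozyme, rose to 862, 2711 and 1828 CPM with RU521, against 241, 734 and 289 CPM in sham, with 2049 ± 173 CPM in injured ganglia without RU521. The Fc receptor genes Fcgr3 and Fcer1g also rose (1.5 ± 0.36 and 1.47 ± 0.36). Cx3cr1, the fractalkine receptor of resident macrophages and microglia, was instead at 9.15, 23.7 and 14 CPM with RU521, at 41.7, 47.3 and 44.9 CPM without it and at 6.93, 21.5 and 10.6 CPM in sham, and Adgre1, which encodes F4/80, at 8.68, 21.2 and 20.3 CPM with RU521, 38.3, 54.2 and 37.5 CPM without it and 4.66, 13.9 and 7.64 CPM in sham. Their direct differences were -1.52 ± 0.34 and -1.37 ± 0.36. The mannose receptor Mrc1 and the myeloid transcription factor Spi1 had the same course (-1.33 ± 0.32 and -1.90 ± 0.52). Summed macrophage markers were 1172, 3594 and 2410 CPM with RU521, 3143, 2980 and 2988 CPM without it and 422, 1227 and 494 CPM in sham. The 3 called increases were 0 without sham replicate 3 or RU521 replicate 2, 1 without sham replicate 1, RU521 replicate 3 or any wild-type injured replicate, 14 without sham replicate 2 and 9 without RU521 replicate 1. The 5 direct differences were 0 without RU521 replicate 1 or 3 or wild-type injured replicate 2, 1 without wild-type injured replicate 3, 3 without wild-type injured replicate 1 and 7 without sham replicate 2; the count without RU521 replicate 2 was 7 too.

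**Figure D4:**
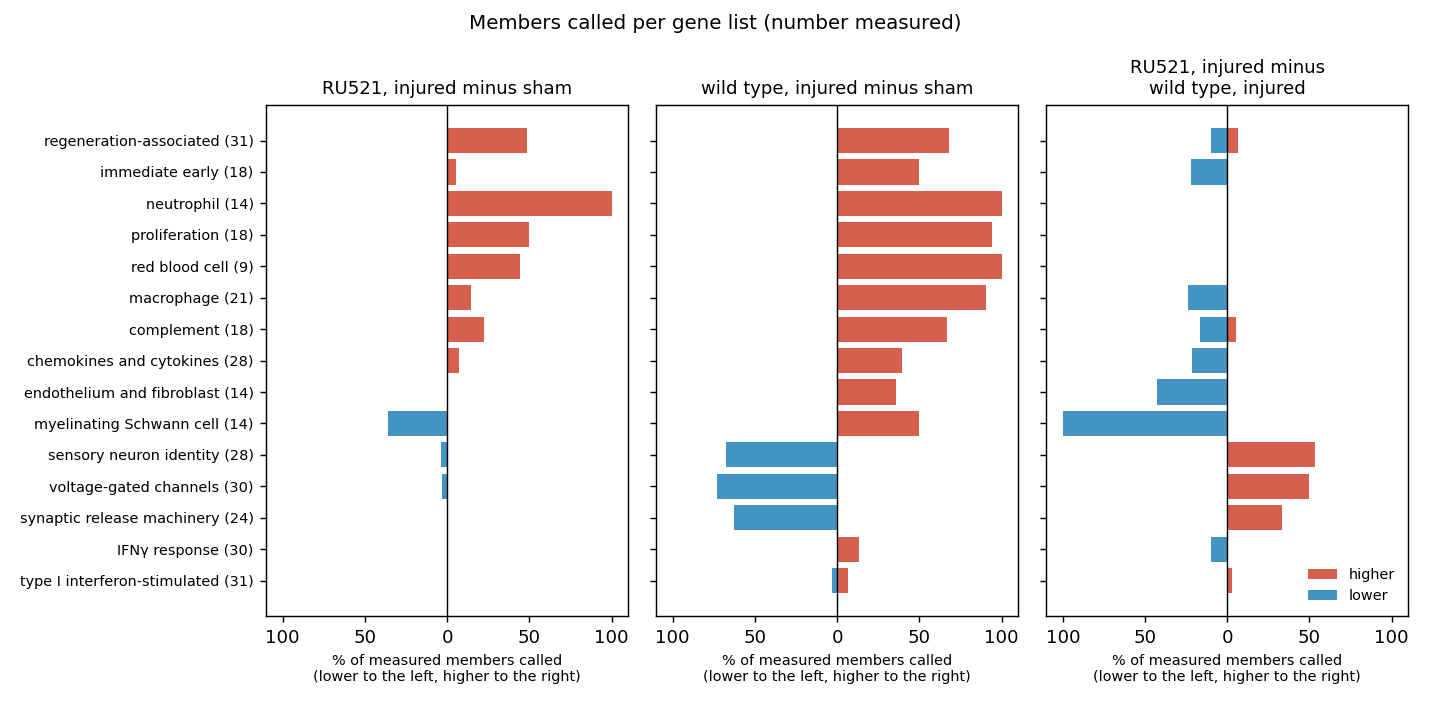
Percent of measured members of 15 gene lists called higher (red, to the right) or lower (blue, to the left) in injured ganglia with RU521 minus sham, injured wild type minus sham, and RU521 minus wild type among injured ganglia. Neutrophil bars reach 100% in both comparisons with sham, and the myelinating Schwann cell bar reaches 100% lower in the direct test.

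Most of the fall of resting sensory neuron genes was absent under RU521. Of 28 measured genes of sensory neuron identity, 1 fell under RU521 and 19 without it, 15 were higher under RU521 in the direct test, and 14 falls were absent. Over all genes tested, 0.535% fell under RU521, 7.98% fell without it and 5.1% were higher in the direct test. The median log2 fold change of the list was -0.04 under RU521 and -0.97 without it. Calca, which encodes the peptide CGRP (chromosome 7), stood at 2517, 2189 and 2351 CPM with RU521, at 1258, 851 and 951 CPM without it and at 2061, 1655 and 1930 CPM in sham. RU521 libraries lay above all others, and the fold change against sham was 0.32 ± 0.15 (adjusted p = 0.315), against -0.88 ± 0.15 without RU521 (adjusted p = 0.00227) and 1.21 ± 0.15 in the direct test (adjusted p = 0.00055). Tac1, the substance P precursor, stood at 340, 217 and 294 CPM with RU521, at 114, 65.7 and 75.1 CPM without it and at 276, 167 and 265 CPM in sham. Calcb, Th, the catecholamine enzyme of low-threshold mechanoreceptors, and Fxyd2, a sodium pump subunit, were absent in the same way, with direct differences of 1.47 ± 0.23, 1.88 ± 0.35 and 1.5 ± 0.18. For Calca, Tac1, Calcb, Th and Fxyd2 the direct test passed in all 17 alternative fits. Their fall without RU521, which an absent change also needs, was called in 17 for Calca and Fxyd2, in 16 for Tac1 and in 10 for Calcb and Th.

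Nociceptor receptors and neurofilament had wider spread. Trpv1, the capsaicin receptor, was at 97.5, 62.1 and 96.1 CPM with RU521, at 43.0, 37.1 and 33.3 CPM without it and at 107, 39.7 and 93.6 CPM in sham. Nefh, the heavy neurofilament of large neurons, was at 701, 218 and 362 CPM with RU521, at 190, 184 and 198 CPM without it and at 632, 600 and 698 CPM in sham. The Nefh difference rested on RU521 replicate 1: the direct value was 1.16 ± 0.29 with it and 0.61 without it (adjusted p = 0.116), and the call was also lost without any 1 injured library free of RU521 (adjusted p = 0.0579 to 0.0859). Mrgprd, a receptor of nonpeptidergic nociceptors, Sst, somatostatin, and the transcription factor Isl1 were absent too, with direct differences of 1.47 ± 0.37, 1.87 ± 0.39 and 0.76 ± 0.18. The falls without RU521 were called in 10 of 17 alternative fits for Trpv1, Mrgprd and Sst and in 14 for Isl1. Pvalb, a calcium buffer of proprioceptors that skeletal muscle also makes, was the gene that fell in both comparisons. It stood at 129, 81.9 and 95.1 CPM with RU521, at 134, 82.1 and 98.2 CPM without it and at 172, 963 and 225 CPM in sham, and its fall of 2.15 ± 0.47 was 0.97 without sham replicate 2, whose summed skeletal muscle markers were 6380 CPM against 193 and 776 CPM in the other sham libraries. Its call was lost without RU521 replicate 2 or 3 (adjusted p = 0.13 and 0.102).

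Voltage-gated channels followed the sensory genes, and the release machinery did so in part. Of 30 channel genes, 1 fell under RU521 and 22 without it, and 15 falls were absent. Over all genes tested, 0.535% fell under RU521 and 7.98% without it. Scn10a, the sodium channel Nav1.8 of nociceptors, stood at 498, 208 and 397 CPM with RU521, at 140, 83.2 and 96.2 CPM without it and at 328, 156 and 281 CPM in sham (direct difference 1.79 ± 0.33, adjusted p = 0.0052). Kcnd3, the A-type potassium channel Kv4.3 (chromosome 3), stood at 87.5, 32.7 and 43.0 CPM with RU521, at 15, 11.2 and 11.8 CPM without it and at 44.8, 28.5 and 46.8 CPM in sham (2.10 ± 0.30). RU521 and sham libraries overlapped in both genes, and all RU521 libraries lay above the injured libraries without it. Scn11a, a sodium channel of nociceptors, had a direct difference of 1.94 ± 0.36. The falls without RU521 were called in 11 of 17 alternative fits for Scn10a, in 16 for Kcnd3 and in 10 for Scn11a. The channel that fell under RU521 was Kcns3, a modifying potassium channel subunit (-0.73 ± 0.18), at 40.3 ± 4.52 CPM with RU521, 31.5 ± 5.70 CPM without it and 66.6 ± 18.2 CPM in sham, a call made in 8 of 17 alternative fits. Of 24 genes of synaptic release, 0 changed under RU521 and 15 fell without it. Of these falls 7 were absent and 8 were not resolved. The median log2 fold change of the list was -0.17 under RU521 and -0.98 without it. Syt7, a calcium sensor of vesicle fusion, stood at 87.2, 27.3 and 42.2 CPM with RU521, at 14.2, 7.66 and 8.51 CPM without it and at 37.2, 36.9 and 35.9 CPM in sham. For Snap25, a fusion protein of the synapse, neither test passed (-0.87 ± 0.26 under RU521, direct 0.16 ± 0.26).

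Summed sensory neuron markers were 12938, 7573 and 9952 CPM with RU521, 6793, 5707 and 5991 CPM without it and 14345, 9685 and 14267 CPM in sham, so the libraries with fewer detected genes (RU521 replicate 1 and sham replicates 1 and 3) held the most. Sensory genes that fell under RU521 numbered 1 with all libraries, 6 without sham replicate 2, 4 without RU521 replicate 1 and 0 without RU521 replicate 2 or 3, and 4 sensory genes were higher than in sham with the covariate or with sham replicate 2 as the only sham library. Whether this bears on the absent falls was not tested beyond the alternative fits. The 15 direct differences of sensory genes were 12 with the covariate of detected genes, 8 without RU521 replicate 1, and 6 without wild-type injured replicate 2 or 3. The falls without RU521 themselves numbered 19 with all sham libraries, 10 and 9 without sham replicates 1 and 3, 9 and 10 without wild-type injured replicates 2 and 3, 6 with the covariate and 3 with sham replicate 2 as the only sham library. The falls of channels without RU521 numbered 22 with all libraries, 12 and 11 without sham replicates 1 and 3, 11 and 12 without wild-type injured replicates 2 and 3, 7 with the covariate and 3 with sham replicate 2 as the only sham library. Channels that fell under RU521 numbered 7 without RU521 replicate 1 and 3 without sham replicate 2. For channels, the 15 direct differences were 7 without RU521 replicate 1, 6 and 8 without wild-type injured replicates 2 and 3, and 24 without RU521 replicate 2. The 8 of synaptic release were 4 without RU521 replicate 1, 5 without RU521 replicate 3 or wild-type injured replicate 1, 2 and 4 without wild-type injured replicates 2 and 3, 12 without RU521 replicate 2 and 15 without sham replicate 2. The 15 falls of synaptic release genes without RU521 were 9 and 5 without sham replicates 1 and 3, 7 and 6 without wild-type injured replicates 2 and 3, and 3 with the covariate or with sham replicate 2 as the only sham library. Under RU521, 6 genes of the release list were lower than in sham without sham replicate 2, and 4 were higher with the covariate.

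**Figure D5:**
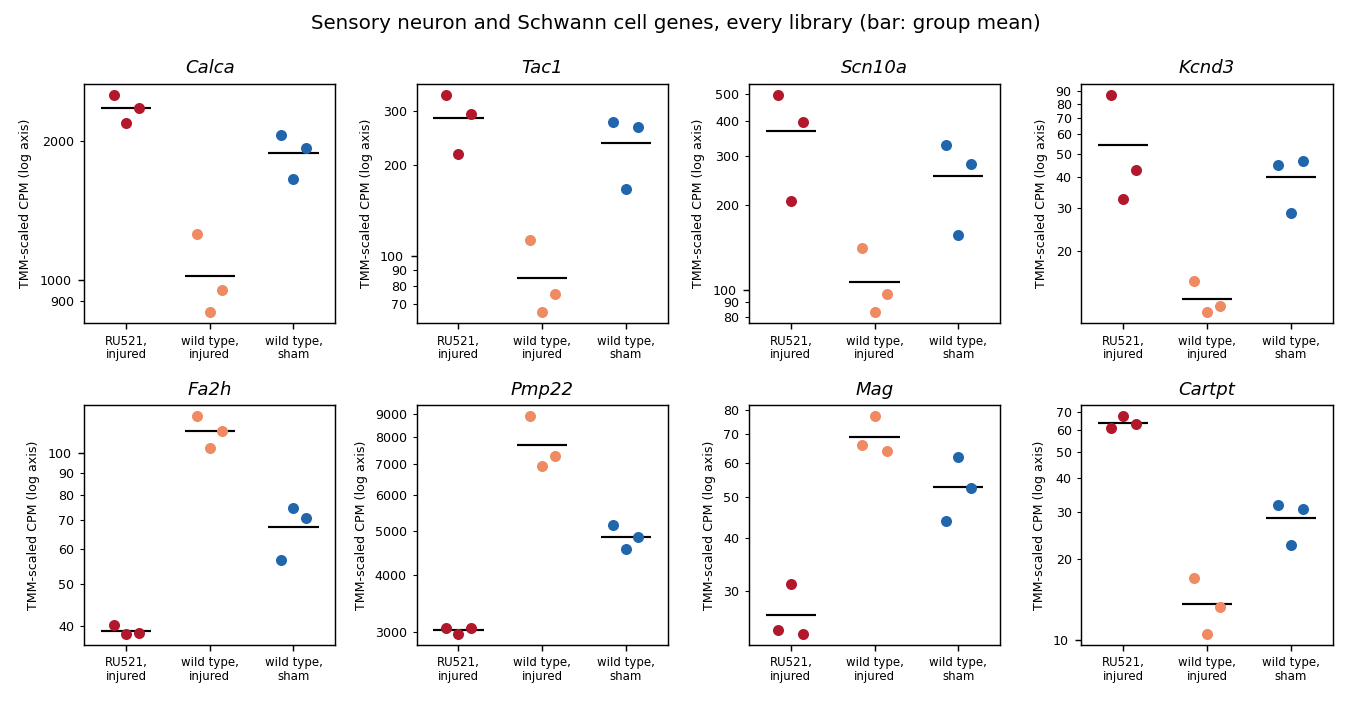
TMM-scaled CPM on log axes of 4 sensory neuron genes (Calca, Tac1, Scn10a, Kcnd3), 3 myelin genes (Fa2h, Pmp22, Mag) and Cartpt in every library, with points for libraries and bars for group means. In the 4 neuron genes the RU521 libraries (red) lie above the injured libraries without RU521 (orange), and in the 3 myelin genes they lie below both other groups, for Pmp22 at 2980 to 3075 CPM against 4560 to 5144 CPM in sham.

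Myelin genes of Schwann cells were lower under RU521 than in injured ganglia without it, and some of them were also lower than in sham. Of 14 myelinating Schwann cell markers, 5 fell and 0 rose under RU521 (median -0.57), 7 rose and 0 fell without it (median 0.64), and all 14 were lower under RU521 in the direct test (median -1.27). Pmp22, a myelin membrane protein (chromosome 11, 63128982 to 63159547), stood at 3075, 2980 and 3072 CPM with RU521, at 8901, 6916 and 7282 CPM without it and at 5144, 4560 and 4838 CPM in sham. It fell by 0.67 ± 0.15 under RU521 (adjusted p = 0.0291) and rose by 0.67 ± 0.15 without it. Mag, the myelin-associated glycoprotein, stood at 24.2, 31.1 and 23.8 CPM with RU521, at 66.3, 77.3 and 64.1 CPM without it and at 43.7, 62.1 and 52.3 CPM in sham, a fall of 1.0 ± 0.15 with no injury change called without RU521. Mbp, Drp2, a dystroglycan-complex protein, and Mal rose without RU521 and their increases were absent under it.

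The direct difference of myelin genes held when libraries were left out. Between 11 and 14 of the 14 markers were lower in every alternative fit, including 14 in the fit of the injured groups alone and 14 with the covariate of detected genes. The falls against sham were 5 with all libraries, 1 without RU521 replicate 2, 3 without sham replicate 3, RU521 replicate 3 or wild-type injured replicate 3, 0 in the fit of 6 libraries and 10 with sham replicate 2 alone. Summed myelin markers were 8706, 10323 and 10614 CPM with RU521, 24867, 23019 and 23218 CPM without it and 10812, 17050 and 11341 CPM in sham. Less RNA per Schwann cell and fewer Schwann cells or nerve in the dissected piece cannot be told apart.

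Genes whose injury change took opposite signs included further myelin genes. Besides Cartpt there were 13, all of them higher in injured ganglia without RU521 and lower with it than in sham. Pmp22, Pllp, a myelin proteolipid, Fa2h, which makes the hydroxylated fatty acids of myelin, Gldn, gliomedin of the node of Ranvier, and Dag1, dystroglycan, are known from myelinating Schwann cells. Fa2h had 40.2, 38.3 and 38.4 CPM with RU521, 121, 103 and 112 CPM without it and 56.6, 74.5 and 70.8 CPM in sham (-0.79 ± 0.13 and 0.74 ± 0.13 against sham). Bmp7, a growth factor of the BMP family, had 7.63 ± 1.36, 24.7 ± 1.67 and 13.8 ± 0.563 CPM in the same order, and Cav1, caveolin, had 97.6 ± 3.73, 214 ± 9.39 and 140 ± 5.55 CPM. The others were Mboat1, an acyltransferase, Mxra8, Scube1, Sema3b, a semaphorin, the amino acid transporter Slc36a2 and Smtn, smoothelin of smooth muscle. All 14 were called in the direct test in 17 of 17 alternative fits, but against sham under RU521 Pllp and Scube1 were called in 7, Pmp22 in 10 and Smtn in 11 of them. The count of 14 needs both comparisons with sham and was 27 without sham replicate 2, 3 without sham replicate 3, 7 without sham replicate 1, wild-type injured replicate 1 or RU521 replicate 2, and 6 without wild-type injured replicate 2 or 3 or RU521 replicate 3.

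Of the 8 absent changes with the smallest direct p, 6 were increases and 2, Fxyd2 and Calca, were decreases described above. Plk5, a polo-like kinase of neurons and glia, stood at 4.99, 3.97 and 4.75 CPM with RU521, at 22.9, 18.0 and 17.7 CPM without it and at 7.14, 9.03 and 6.15 CPM in sham (direct -2.09 ± 0.22, adjusted p = 0.000136). Ugt8a, the enzyme of myelin galactolipid synthesis, stood at 116, 120 and 127 CPM with RU521, at 373, 322 and 334 CPM without it and at 161, 264 and 167 CPM in sham. Ogn, a leucine-rich proteoglycan, had 139 ± 8.80 CPM with RU521, 370 ± 18.5 CPM without it and 207 ± 66.7 CPM in sham. Mlip, Prrg3 and Ctnnal1, an alpha-catulin, had direct differences of -1.48 ± 0.15, -1.10 ± 0.13 and -1.23 ± 0.15. In each of these 6, all RU521 libraries lay below all sham libraries. They were picked by the smallest direct p, which favours low RU521 values. In other absent increases, such as Plat and Lum, RU521 and sham libraries overlapped.

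Endothelial, fibroblast and matrix genes had the direction of the myelin genes. Of 14 endothelial and fibroblast markers 0 changed under RU521, 5 rose without it and 6 were lower in the direct test. Over all genes tested, 2.39% were called under RU521, 8.6% rose without it and 4.48% were lower in the direct test. In a list of this size, 0 calls under RU521 are near that share. Lum, the proteoglycan lumican, stood at 126, 171 and 135 CPM with RU521, at 355, 346 and 324 CPM without it and at 142, 216 and 138 CPM in sham (direct -1.25 ± 0.17). Dcn, decorin, Pdgfra, the fibroblast receptor, and Pecam1, an endothelial adhesion molecule, differed by -1.17 ± 0.22, -1.32 ± 0.26 and -1.17 ± 0.26. The 6 were 3 and 4 without wild-type injured replicate 2 and RU521 replicate 1, and 11 without sham replicate 2. Of 22 collagen and matrix genes, 1 fell under RU521, Col4a2 of basement membrane (-0.79 ± 0.20), 3 rose without it, and 9 were lower in the direct test. Without sham replicate 1, 2 or 3 the matrix genes lower under RU521 against sham were 7, 0 and 0, and those lower in the direct test were 14, 18 and 8; the direct count was 3 to 7 without any 1 injured library. Sham replicate 2 held 6088 CPM of summed matrix genes against 2399 and 2679 CPM in the other sham libraries.

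Decreases under RU521 included matrix, neuronal and muscle genes. Comp, a cartilage and tendon matrix protein, stood at 4.46, 3.78 and 4.19 CPM with RU521, at 5.98, 6.72 and 7.41 CPM without it and at 22.7, 21.4 and 21.2 CPM in sham, a fall of 2.39 ± 0.23 (adjusted p = 7.66e-05) that was called without RU521 too (-1.70 ± 0.23). Calb2, the calcium buffer calretinin, Lancl3 and Smpx, a muscle protein, fell in both comparisons as well, by 1.60 ± 0.32, 1.75 ± 0.37 and 1.71 ± 0.32 under RU521. Against sham replicate 2 alone, neither Calb2 (-0.80) nor Lancl3 (-0.80) passed. Col9a2, a cartilage collagen chain, fell under RU521 (-2.77 ± 0.49, and -2.03 without sham replicate 2) and was not called for injury without it, at 1.78, 0.883 and 0.813 CPM with RU521, 6.29, 6.67 and 7.03 CPM without it and 3.88, 14.5 and 5.61 CPM in sham. Hes1, the Notch target, stood at 6.66, 3.03 and 1.69 CPM with RU521, at 22.5, 21.8 and 26 CPM without it and at 7.14, 25.5 and 20.8 CPM in sham. Its fall of 2.22 ± 0.56 was near the threshold (adjusted p = 0.0493) and was called in 8 of 17 alternative fits, whereas its direct difference of -2.62 ± 0.57 was called in all but the one without RU521 replicate 3 (adjusted p = 0.0503). Phlda3 and Plod2, a collagen lysyl hydroxylase, fell by 1.53 ± 0.38 and 1.58 ± 0.36 under RU521 (by 1.19 and 0.95 without sham replicate 2, where Phlda3 was not called), and Nipal1, Wdr72 and Chad by 1.52 ± 0.34, 2.28 ± 0.43 and 1.89 ± 0.45. Sham replicate 2 held the most Nipal1 and Chad of the sham libraries (9.46 and 14.3 CPM), and without it they fell by 1.07 and 1.38, while Wdr72 was not called against sham replicate 2 alone (-1.25). Chad and Phlda3 were called in 8 of 17 alternative fits. Spint1, Tgfbr2, the TGF-beta receptor, Peli2, P3h1 and Ggcx, the vitamin K-dependent carboxylase, were lower too, by 0.66 to 1.11, with no injury change called without RU521.

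Calls in the pathway that RU521 targets and in the interferon lists are given beside the shares over all genes tested. Of all genes, 1.85% were higher and 0.535% lower under RU521. Without it 8.6% were higher and 7.98% lower, and 4.48% were lower in the direct test. In a list of 31 genes or fewer, 0 calls under RU521 are near those shares. Cgas itself stood at 1.37, 1.77 and 0.375 CPM with RU521, at 1.89, 2.76 and 1.81 CPM without it and at 0.479, 0.747 and 0.641 CPM in sham. Its change was not resolved (0.91 ± 0.50 under RU521, adjusted p = 0.435; direct -0.88 ± 0.47, 95% interval -1.88 to 0.13), and since RU521 acts on the protein, its RNA does not check the treatment. Of 12 measured cGAS-STING genes 1 rose under RU521, 4 rose and 1 fell without it and 0 differed directly. Sting1, the adaptor of cGAS, rose under RU521 to 9.27, 12.4 and 9.51 CPM against 4.97, 6.47 and 5.08 CPM in sham, with 14.2 ± 2.61 CPM in injured ganglia without RU521 (0.92 ± 0.20 under RU521), a call made in 11 of 17 alternative fits. Of 31 type I interferon-stimulated genes 0 changed under RU521, and without it 2 rose and 1 fell. Ifi27, the 1 that fell without RU521, was higher in the direct test (277 ± 28.0 CPM with RU521, 190 ± 1.70 CPM without it, 242 ± 4.94 CPM in sham). The fall of Ifi27 without RU521 was called in 7 of 17 alternative fits and its direct difference in all 17. Of 30 genes of the IFNγ response 0 changed under RU521, 4 rose without it and 3 were lower in the direct test. Gbp9, a guanylate-binding protein, was at 4.93, 6.18 and 5.57 CPM with RU521, at 15.4, 10.9 and 10.4 CPM without it and at 4.97, 4.36 and 5.56 CPM in sham, and its reads may be shared with its paralogs. Among 17 MHC class I presentation genes, 0 passed in any of the 3 comparisons, and 2 of 8 class II genes were lower in the direct test. The increases without RU521 moved with single libraries. The 4 of the IFNγ response were 1 without sham replicate 1 or 3 or any wild-type injured replicate and 11 without sham replicate 2, where 3 genes of the list rose under RU521. The 2 of the type I list were 0 without sham replicate 1 or 3 or wild-type injured replicate 2 and 8 without sham replicate 2, where 3 genes of the list rose under RU521. The 4 of the cGAS-STING list were 2 and 1 without sham replicates 1 and 3 and 6 without sham replicate 2. Ptpn2, the phosphatase deleted in other groups of the series, did not pass under RU521 (0.12 ± 0.22).

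Some cytokine, complement and acute-phase genes rose under RU521. Of all genes tested, 1.85% rose under RU521, 8.6% rose without it and 4.48% were lower in the direct test. Osm, oncostatin M, stood at 0.475, 3.40 and 3.32 CPM with RU521, at 2.44, 3.14 and 2.84 CPM without it and at 0.0436, 0.0623 and 0.214 CPM in sham, where 2 libraries were under the detection floor. Il1rn, the interleukin-1 receptor antagonist, rose by 2.54 ± 0.55. These were the 2 of 28 chemokines and cytokines that rose under RU521, while 11 rose without it and 6 were lower in the direct test. Csf1, a growth factor of macrophages, was at 11.1, 30.3 and 19.4 CPM with RU521, at 33.2, 63.5 and 55.4 CPM without it and at 12.6, 6.54 and 10.2 CPM in sham, and Ccl12, a monocyte chemokine, at 3.02 ± 0.885, 7.47 ± 0.501 and 2.51 ± 1.18 CPM in the same order. Of 18 complement genes 4 rose under RU521, C3, the receptor C5ar1, properdin Cfp and the integrin Itgb2 (2.17 ± 0.34, 2.10 ± 0.34, 1.97 ± 0.44 and 2.20 ± 0.35), and 12 rose without it. C1qc, a C1q chain made by macrophages, was instead at 18.7, 11.7 and 8.07 CPM with RU521, at 83.0, 110 and 106 CPM without it and at 12.4, 47.8 and 20.2 CPM in sham (direct -2.96 ± 0.44, called in 17 of 17 alternative fits). Of 16 gp130 and acute-phase genes 2 rose under RU521, Hp, haptoglobin, and the kinase Pim1, while 8 rose and 1 fell without it and Saa1, serum amyloid A, was among 5 lower in the direct test (-1.45 ± 0.37). With 1 library left out, the increases under RU521 were 1 to 7 of the cytokine genes (7 without sham replicate 2 or RU521 replicate 1), 3 to 7 of the complement genes (7 without sham replicate 2) and 0 to 7 of the acute-phase genes (0 without sham replicate 1 or 3 or RU521 replicate 2 or 3). The 6 cytokine genes lower in the direct test were 2 to 9, with 2 without RU521 replicate 1 or wild-type injured replicate 2.

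The increase of Cebpd, a C/EBP factor of inflammation and glucocorticoid response, was absent under RU521. It stood at 2.85, 3.03 and 3.44 CPM with RU521, at 43.4, 40.3 and 36.8 CPM without it and at 1.92, 9.03 and 12.7 CPM in sham. The RU521 libraries lay within the range of sham and far below the injured libraries without RU521, with a direct difference of -3.69 ± 0.64 (adjusted p = 0.00382, called in 17 of 17 alternative fits). Of 20 genes of the C/EBP and glucocorticoid list, 1 fell under RU521, 5 rose without it and 6 were lower in the direct test. Over all genes tested, 1.85% rose and 0.535% fell under RU521, 8.6% rose without it and 4.48% were lower in the direct test. Of 18 immediate early genes 1 rose under RU521, Btg2 (1.35 ± 0.29), 9 rose without it and 4 were lower in the direct test. The 1 increase was 0 without sham replicate 1 or 3 or RU521 replicate 2 or 3, and 5 and 3 without sham replicate 2 and RU521 replicate 1. Fos was at 6.83, 14 and 10.6 CPM with RU521, at 15.6, 23.3 and 22.2 CPM without it and at 9.45, 10.9 and 7.27 CPM in sham. Fosb, not called under RU521, had 25 counts over the RU521 libraries and 3 over the sham libraries, a ratio of 9.88 (95% counting interval 3.02 to 51.1). Injured libraries without RU521 held 41 Fosb counts, a ratio to sham of 15.8 (5.03 to 79.6). Both intervals pool the libraries of each group and leave out the spread between libraries. Of 28 JAK-STAT components Socs2 rose (0.59 ± 0.14) and Cntfr, the CNTF receptor, fell (-1.22 ± 0.31) under RU521, while 6 rose without it. Socs2 was called in 6 and Cntfr in 8 of 17 alternative fits, and the 6 increases without RU521 were 2 and 1 without sham replicates 1 and 3 and 1 and 3 without wild-type injured replicates 2 and 3.

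Other lists held few calls, as did all genes tested under RU521 (2.39%). Of 14 satellite glia markers Gfap rose under RU521 (17.9 ± 9.94 CPM with RU521, 26 ± 14.4 CPM without it, 4.02 ± 1.46 CPM in sham), and of 21 cholesterol synthesis genes Lss fell (-0.55 ± 0.13). Against sham under RU521, Gfap was called in 9 and Lss in 7 of 17 alternative fits. No gene passed under RU521 among 18 of the integrated stress response, 17 endoplasmic reticulum chaperones, 18 of axon degeneration and cell death, 12 encoded in mitochondria, 25 cytosolic ribosomal proteins, 16 of T, NK and B cells, 9 of repair Schwann cells and 11 of adipocytes. Of 11 skeletal muscle genes Pvalb was the 1 called.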

How the data were processed

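RNA of L4-L5 ganglia was read as paired ends from SMART-Seq libraries, per the labels' protocols. The authors deposited raw counts per gene name: the submitters' processing notes name Trim Galore, STAR and the GRCm38 build (mm10), and reads were counted with featureCounts over exons without strand, per the file headers, so overlapping and antisense genes cannot be separated. The deposited gene lengths entered no test.

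From the counts, edgeR 4.0.16 (R 4.3.3) with TMM scaling kept 18517 of 55367 genes (filterByExpr, minimum count 10 and minimum total 15) and fitted all 15 ganglion libraries in 5 groups, which include Ptpn2 knockout libraries for the estimate of spread. Quasi-likelihood tests were adjusted over all genes by Benjamini and Hochberg. Log2 fold changes and TMM-scaled CPM were computed here. Library totals ran from 14813365 to 22414750 in the fit and from 15562227 in the 6 libraries compared, which sets the precision. Alternatives were DESeq2 1.42.0, limma 3.58.1 (voom), DESeq2 size factors, no filter, a replicate block, fits of fewer libraries and a covariate of detected genes. On simulated data for RU521 against sham, 47.8%, 82.1% and 86.4% of genes changed by 1, 2 and 4 log2 units were found. In the same data 5.26% of calls were false. Whether these shares hold for the measured libraries was not tested. The measured calls of this comparison numbered 112 without sham replicate 3 and 2276 without sham replicate 2.

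The comparison, the 33 gene lists and the tests were chosen with earlier results of these data known. Named genes were Atf3, Sprr1a, Gal, Ptpn2 and Cgas, the 12 largest called increases and decreases under RU521 with no overlap with sham, the 8 genes with the smallest direct p among absent, smaller, larger and RU521-only changes (all with a mean of at least 5 CPM in the highest group, without predicted genes or pseudogenes), and in each list up to 4 called members, or, in lists with 0 calls, the 2 most abundant members. The genes of opposite sign and others, such as Gadd45a, Cx3cr1 and Cebpd, were named after their values were seen. A few genes that the rule named are not reported here.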

Additional observations from a re-analysis of the deposited data

Results flagged for a closer look

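Injury with RU521 and injury without it differed by a test of the difference itself in 1774 genes, 944 higher and 830 lower with RU521. The higher calls were not the larger share in every fit, as in 195 higher and 281 lower without wild-type injured replicate 2, 242 and 348 without wild-type injured replicate 3, 240 and 451 without RU521 replicate 1 and 651 and 744 with a covariate of detected genes. The count was 476 without wild-type injured replicate 2 and 3457 without sham replicate 2.

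In 14 genes the injury change was called in opposite directions with and without RU521, each of the 14 also being called in the direct test: Cartpt was higher with RU521 and lower without it, and 13 genes including Pmp22, Fa2h and Gldn were lower with RU521 and higher without it. Both comparisons use the same sham libraries.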

How the results depend on the processing

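The number of calls depended strongly on the processing; causes were not tested. For RU521 against sham (442 genes) the count was 1344 with no low count filter, 1090 with DESeq2, 4589 with limma-voom and sample quality weights, 10 in the fit of 6 libraries, 1169 with detected genes as a covariate, 1847 with sham replicate 2 as the only sham library (1011 higher and 836 lower), and 112 to 2276 leaving out 1 library. For injury without RU521 (3070) it was 9257 with limma-voom, 1702 in the fit of 2 groups, 849 with the covariate, 1586 with sham replicate 2 only and 1240 to 6513 leaving out 1 library. For the direct test (1774) it was 2821 with DESeq2, 6186 with limma-voom, 3085 with sham replicate 2 only and 476 to 3457 leaving out 1 library.

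In the order no filter, DESeq2, limma-voom, fit of 2 groups, covariate and sham replicate 2 only, changes called in both with no direct difference (341) numbered 844, 692, 2346, 9, 328 and 644, smaller changes (8) 67, 24, 729, 0, 11 and 24, larger changes (0) 28, 3, 54, 0, 8 and 66, absent changes (985) 1323, 1623, 3570, 447, 271 and 397, changes not resolved (1722) 1309, 1737, 2353, 1246, 222 and 449, opposite changes (14) 43, 31, 205, 0, 9 and 6, changes called under RU521 alone with a direct difference (55) 243, 210, 788, 1, 246 and 658, and those without one (24) 119, 130, 467, 0, 567 and 449. Leaving out 1 library gave 83 to 1614, 0 to 238, 0 to 6, 194 to 2156, 694 to 2472, 3 to 27, 16 to 201 and 1 to 190 for the same 8 classes.

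With the replicate number as a block, RU521 against sham had 578 calls, injury without RU521 3525 and the direct test 2134, and smaller changes numbered 23. Pairing was checked by correlating the deviations of log CPM from each group's mean over genes tested, not the levels themselves. For same-numbered RU521 and sham libraries these correlations were 0.163, 0.267 and -0.016. RU521 replicate 1 correlated more with sham replicate 3 (0.210), so the numbers were not taken to pair the samples.

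Of named genes over all alternatives, 1140 values of RU521 against sham stayed on their side of the threshold and 338 lost it; the direct test had 1287 and 107. The one reversal was Scn11a for injury without RU521, at 0.0144 with sham replicate 2 only against -1.20 with all. With 3 libraries a group, absence of a call does not show absence of a change.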
